A study of Mus musculus with 12 samples.

Results

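The genes described here are the ligands and receptors of axon guidance, taken by name: semaphorins, plexins and neuropilins, ephrins and Eph receptors, netrins with Dcc and the Unc5 receptors, and Slits with Robo receptors. The rule, which used names and no measured value, found 69 of the 24394 gene symbols with an annotated transcript. Of these, 67 encode a ligand or receptor and 2 are antisense RNAs, Plxna4os1 and Plxna4os2, which share the plexin A4 name. A gene was tested where it reached 1 FPKM (fragments per kilobase of transcript, scaled to all mapped fragments) in at least 3 of 12 libraries. This filter was passed by 42 of the 69 genes, and the other 27, both antisense RNAs among them, are given by level only.

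Guidance cues steer growing axons and migrating cells by attraction or repulsion, and in adult tissue the same molecules act in vessels, immune cells and epithelium. Semaphorins signal through plexins, and most of the secreted class 3 semaphorins need a neuropilin as co-receptor. Ephrins are held on the cell surface and signal on contact with Eph receptor tyrosine kinases, netrins bind Dcc and Unc5 receptors, and Slits bind Robo receptors. In the developing gut these systems help to place neural crest cells and their axons.

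The libraries hold RNA pulled down on tagged ribosomes from distal colon myenteric plexus of the C57BL/6 strain, in 4 groups of 3. DNBS_GR159897 mice received an enema of 5 mg di-nitrobenzene sulfonic acid (DNBS) in 50% ethanol and GR159897, an antagonist of the neurokinin 2 receptor. DNBS_Vehicle mice received that enema and 0.1% DMSO. Saline_GR159897 mice received a saline enema and GR159897, and Saline_Vehicle mice a saline enema and 0.1% DMSO. The enema was 0.1 ml and was given 48 hours before collection. GR159897 was given at 0.5 mg/kg in 0.1% DMSO, and injections were daily over 3 days from 24 hours before the enema. All mice had the genotype Sox10::CreERT2+/- / Rpl22tm1.1Psam/J, in which tamoxifen-activated Cre under Sox10 tags the ribosomal protein Rpl22. All ate chow with 400 mg/kg tamoxifen citrate for 2 weeks and normal chow for 1 week after it. The labels list no ethanol in the saline enema, so DNBS and its ethanol solvent cannot be told apart. DNBS_GR159897 held 2 females and 1 male, and the other groups 1 female and 2 males each. The labels name no age, batch or pooling and give a sex for each library, so the p-values measure the spread between these libraries.

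The libraries summed to 266932 to 488723 FPKM, and 10325 to 11157 symbols reached 1 FPKM. The glial gene S100b was at 94.0 to 288 FPKM in 11 libraries, but the smooth muscle gene Acta2 was higher, at 326 to 1005 FPKM. The guidance genes therefore cannot be assigned to glia from these values. DNBS_GR159897 replicate 1 stood apart. It had 1.17 FPKM of S100b, 47.4 FPKM of Acta2 and 183 FPKM of the epithelial gene Epcam, which was at most 4.86 FPKM in the other 11 libraries, and annotated transcripts took 22.6% of its FPKM, against 53.8% to 95.1% in the others. Where leaving it out ended a call or moved a printed difference by over 1.5 times, the value without it is also given.

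Semaphorins, the largest family, had 16 of 19 members past the filter. Sema3b, a secreted class 3 ligand of the neuropilins, had the highest mean of all members, 40.0 FPKM over the 12 libraries. Plexins and neuropilins had 8 of 11 coding members past the filter, led by Plxnb2, a receptor for class 4 semaphorins, at 8.68 FPKM. Ephrins had 6 of 8, led by Efna5 at 6.66 FPKM, and Eph receptors 7 of 14, led by Ephb3 at 4.35 FPKM. Since FPKM is scaled to transcript length, these levels can be set side by side.

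Several receptors had low values at their annotated loci. All 4 Robo receptors failed the filter, with means of 0.055 to 0.616 FPKM, while their ligand Slit3 averaged 3.26 FPKM. Dcc, the attractive netrin receptor, was listed at 0 in 11 of 12 libraries, while Ntn4 averaged 6.36 and Ntn1 4.51 FPKM. A listed 0 is not a measured absence: the general transcription factor gene Tbp was also listed at 0 in Saline_GR159897 replicate 3. In addition, 28 loci named for Dcc and 106 named for Robo2 hold no annotated transcript and lie outside these values, with means that sum to 6.15 and 35.8 FPKM. Unc5b, which mediates repulsion by netrin-1, averaged 1.41 FPKM, Unc5c and Unc5d 0.166 and 0.168 FPKM. Plxnc1, the plexin that binds Sema7a, averaged 0.216 FPKM and never reached 1 FPKM, while Sema7a averaged 2.02 FPKM. Loci without an annotated transcript also lie outside these values for Unc5c (42), Unc5d (37), Unc5b (8), Plxnc1 (11) and Slit3 (3). Their means sum to 14.6, 7.64, 3.4, 2.12 and 17.0 FPKM.

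The 69 members summed to 123 to 282 FPKM per library, and 28 to 37 of them reached 1 FPKM. The highest sum, in DNBS_Vehicle replicate 2, included 76.2 FPKM of Sema3b and 22.8 FPKM of Sema6d. Plexins and neuropilins together summed to 17.1, 39.8 and 29.1 FPKM in DNBS_GR159897 libraries, 25.1, 48.0 and 20.3 FPKM in DNBS_Vehicle libraries, 45.5, 50.7 and 41.7 FPKM in Saline_GR159897 libraries and 43.9, 43.1 and 42.3 FPKM in Saline_Vehicle libraries. In 5 of 6 DNBS libraries this sum was below every saline library, and DNBS_Vehicle replicate 2 was the exception.

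**Figure D1:**
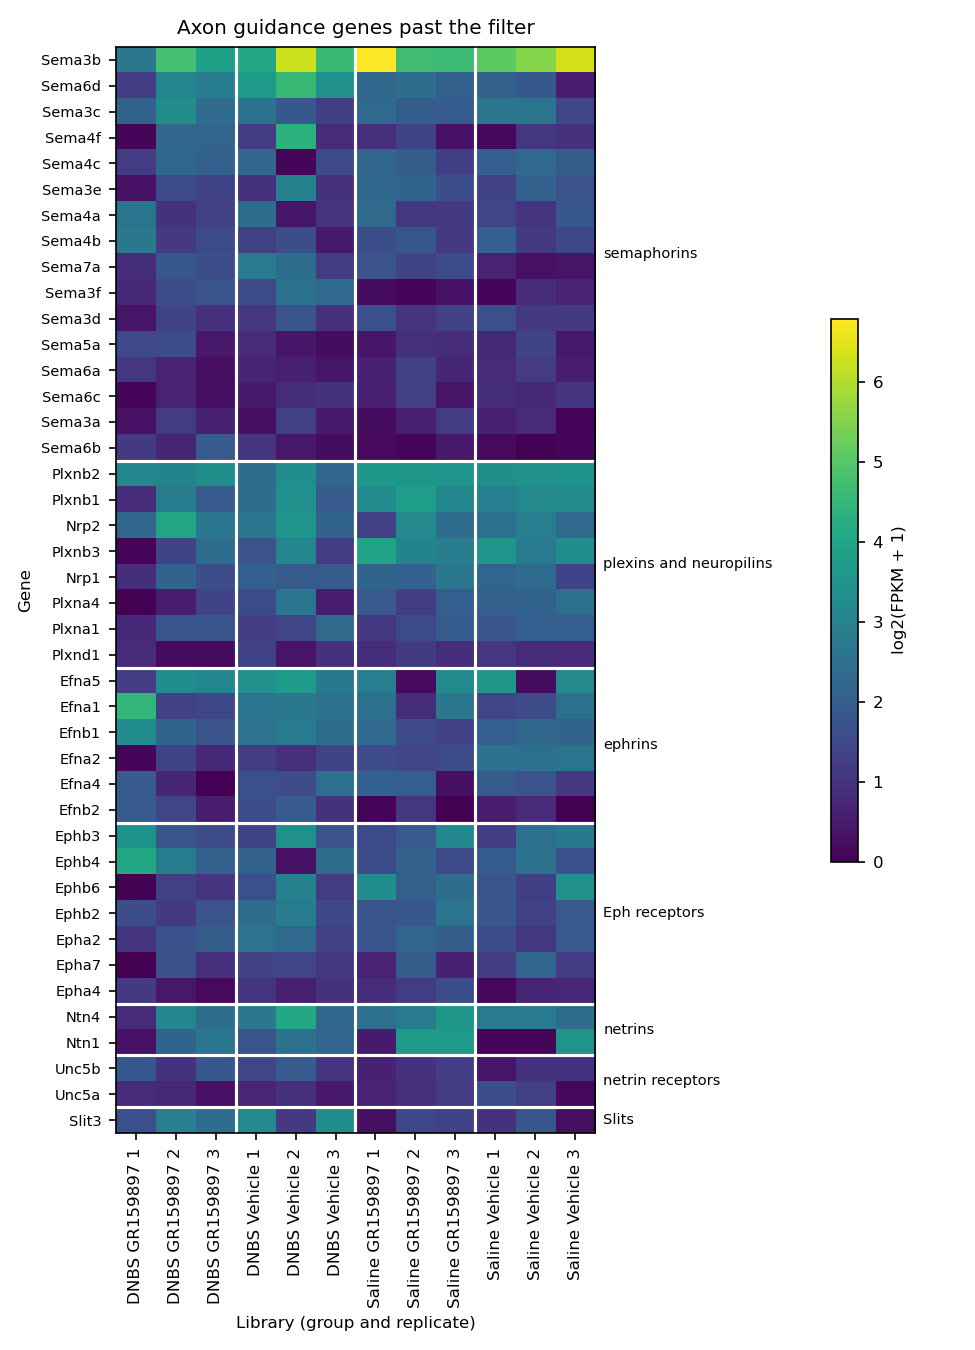
Levels of the 42 tested guidance genes as log2(FPKM + 1), colour from dark (low) to light (high), with libraries in columns by group and genes in rows by family. Sema3b is the brightest row, and the DNBS_GR159897 replicate 1 column departs from its neighbours in many rows.

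Whether colitis changed the guidance genes was first asked over both drug arms together, as the mean of the DNBS change with GR159897 and the DNBS change with vehicle. Sema3f, a secreted class 3 semaphorin that repels axons through Nrp2, rose with DNBS. Efna2, a GPI-anchored ephrin that binds EphA receptors, and Plxnb3, a plexin that binds Sema5a, fell. Changes are differences in log2(FPKM + 1), which understates the change of genes at low FPKM. With 3 of 42 called, the share among guidance genes was 7.14%, against 9.6% of all 12777 genes tested. The called members include Sema3f, which was tested only because of its DNBS libraries. By direction, 1 of 42 rose, against 2.76% of all genes, and 2 fell, against 6.83%. At an unadjusted p under 0.05 there were 13 of 42, or 31.0%, against 28.3%, so the members' share was near the background throughout. Of all called genes, 353 rose and 873 fell, and with values scaled to the annotated total 404 rose and 612 fell.

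Sema3f lies on chromosome 9, 107681500 to 107710475, minus strand (GRCm38, GENCODE M21; all positions below follow this build). It had 0.68, 2.13 and 2.39 FPKM in DNBS_GR159897 libraries, 1.97, 4.75 and 4.01 FPKM in DNBS_Vehicle libraries, 0.17, 0.09 and 0.26 FPKM in Saline_GR159897 libraries and 0.08, 0.83 and 0.59 FPKM in Saline_Vehicle libraries. Within each drug arm every DNBS library was above every saline library. Across arms there was an overlap at a single point, 0.68 FPKM in DNBS_GR159897 replicate 1 below 0.83 FPKM in Saline_Vehicle replicate 2. The averaged change was 1.37 ± 0.26 (SE; 95% interval 0.80 to 1.95; adjusted p = 0.01235), and without DNBS_GR159897 replicate 1 it was 1.53 ± 0.25 (adjusted p = 0.005085). It reached 1 FPKM in 5 DNBS and 0 saline libraries, so it entered the test through the groups where it is high. With no filter the adjusted p was 0.02927, and with the annotated share of each library as a term the change was 1.62 and no longer passed (adjusted p = 0.08244).

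The promoters of Efna2 and Plxnb3 are shown because these genes passed the threshold for the averaged DNBS change and have entries among the RefSeq promoters (GRCm38.p6). Neither call held in all alternative fits, as given below. Each runs 5′ to 3′ from 250 bases before to 50 bases into the gene. Efna2 is at chr10:80179232-80179531 on the plus strand and Plxnb3 at chrX:73756853-73757152 on the plus strand. Capitals mark a match to 1 of 5 motifs searched on both strands, which were AP-1 (TGANTCA), CRE (TGACGTCA), E-box (CACGTG), SOX (AACAAT) and the longer NF-kB motif.
Efna2: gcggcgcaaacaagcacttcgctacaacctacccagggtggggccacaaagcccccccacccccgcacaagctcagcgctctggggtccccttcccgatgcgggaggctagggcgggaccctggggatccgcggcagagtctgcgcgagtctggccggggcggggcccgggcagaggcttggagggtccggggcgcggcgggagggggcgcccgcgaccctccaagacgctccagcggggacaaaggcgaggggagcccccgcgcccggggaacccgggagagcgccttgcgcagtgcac
Plxnb3: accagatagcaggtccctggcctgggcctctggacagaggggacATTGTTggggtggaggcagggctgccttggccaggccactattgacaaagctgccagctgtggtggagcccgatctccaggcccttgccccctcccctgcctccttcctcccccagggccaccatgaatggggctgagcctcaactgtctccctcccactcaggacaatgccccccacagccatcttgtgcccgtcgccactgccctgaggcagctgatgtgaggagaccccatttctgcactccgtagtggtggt
The Plxnb3 window held the SOX letters once, read on the minus strand, at base 45, and none of the other 4 motifs. The Efna2 window held none of the 5. The SOX letters occur in 10.7% of all 32851 promoters, AP-1 in 7.81%, the E-box in 7.15%, CRE in 1.79% and NF-kB in 0.411%. Of the members, 57 of 69 had an entry, with 71 promoters in all. Among those 71, 5 held the E-box, 2 AP-1, 2 SOX, 1 CRE and 0 NF-kB.

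Efna2 lies on chromosome 10, 80179482 to 80190010, plus strand. It had 0.09, 1.63 and 0.71 FPKM in DNBS_GR159897 libraries, 1.36, 0.94 and 1.56 FPKM in DNBS_Vehicle libraries, 1.91, 1.66 and 1.86 FPKM in Saline_GR159897 libraries and 4.78, 4.61 and 5.11 FPKM in Saline_Vehicle libraries. All 6 DNBS libraries were below all 6 saline libraries, but narrowly, with 1.63 FPKM the highest with DNBS and 1.66 FPKM the lowest with saline. The 3 Saline_Vehicle libraries stood well above the other 9. The averaged change was -1.04 ± 0.24 (95% interval -1.56 to -0.52; adjusted p = 0.02365), and -0.88 ± 0.21 without DNBS_GR159897 replicate 1 (adjusted p = 0.0273). Leaving out Saline_Vehicle replicate 1 or 3, or Saline_GR159897 replicate 1 or 3, gave adjusted p of 0.05127 to 0.06087 with changes of -1.05 to -1.03. With a pseudocount of 0.1 the adjusted p was 0.05373, and with the annotated share as a term the change was -0.60 (adjusted p = 0.3931).

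Plxnb3 lies on the X chromosome, 73757090 to 73772514, plus strand. It had 0.04, 1.62 and 4.45 FPKM in DNBS_GR159897 libraries, 2.35, 7.62 and 1.31 FPKM in DNBS_Vehicle libraries, 14.62, 7.42 and 6.17 FPKM in Saline_GR159897 libraries and 10.93, 5.84 and 9.13 FPKM in Saline_Vehicle libraries. DNBS and saline libraries overlapped through DNBS_Vehicle replicate 2, and the other 5 DNBS libraries were below every saline library. The averaged change was -1.60 ± 0.44 (95% interval -2.56 to -0.65; adjusted p = 0.04086). This call is the least stable of the 3: leaving out any single library other than DNBS_Vehicle replicate 2 or DNBS_GR159897 replicate 3 ended it, with adjusted p up to 0.1039, as did every other alternative fit than library weights. Without DNBS_GR159897 replicate 1 the change was -1.29 ± 0.39 (adjusted p = 0.0588).

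Summed markers of several cell types differed between DNBS and saline libraries. Glial markers, 11 of 14 with a row, summed to 13.7 to 519 FPKM in DNBS_GR159897, 478 to 923 FPKM in DNBS_Vehicle, 705 to 1141 FPKM in Saline_GR159897 and 482 to 772 FPKM in Saline_Vehicle libraries, so DNBS libraries were below saline libraries in the GR159897 arm and overlapped with them in the vehicle arm. Among these markers Foxd3 was listed at 0 in most libraries. Of the 9 glial markers tested, 3 fell with DNBS, against 6.83% of all genes. Markers of interstitial cells of Cajal, 4 of 4 with a row, summed to 5.33 to 18.2 FPKM in DNBS and 21.4 to 33.5 FPKM in saline libraries, with no overlap. Macrophage markers, 9 of 9 with a row, summed to 21 to 76.8 FPKM in DNBS and 7.07 to 19.1 FPKM in saline libraries. These sums did not overlap either, and 2 of the 8 macrophage markers tested rose, against 2.76% of all genes. Neutrophil markers, 8 of 8 with a row, summed to 10.1 to 577 FPKM in DNBS and 0.34 to 14.9 FPKM in saline libraries. Mpo and Cxcr2 were listed at 0 in all 6 saline libraries. Of the 4 neutrophil markers tested, 3 rose, against 2.76% of all genes. The saline sums were 0.37, 0.64 and 1.94 FPKM with vehicle and 0.34, 0.49 and 14.93 FPKM with GR159897. These 4 markers were thus tested only because of their DNBS libraries, and the 3 rises are a description. Neutrophil, endothelial (5.89 to 15.01 FPKM with DNBS and 1.31 to 7.13 FPKM with saline) and lymphocyte sums (0.11 to 3.69 FPKM and 0.05 to 0.32 FPKM) were higher with DNBS in both arms, with no overlap within an arm. Neuronal sums were higher without overlap in the vehicle arm and epithelial sums in the GR159897 arm, while smooth muscle, fibroblast and mesothelial sums overlapped in both. The part of these cells in the changes of the guidance genes was not tested, and in such mixed RNA fewer cells of a type and less RNA per cell cannot be told apart.

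**Figure D2:**
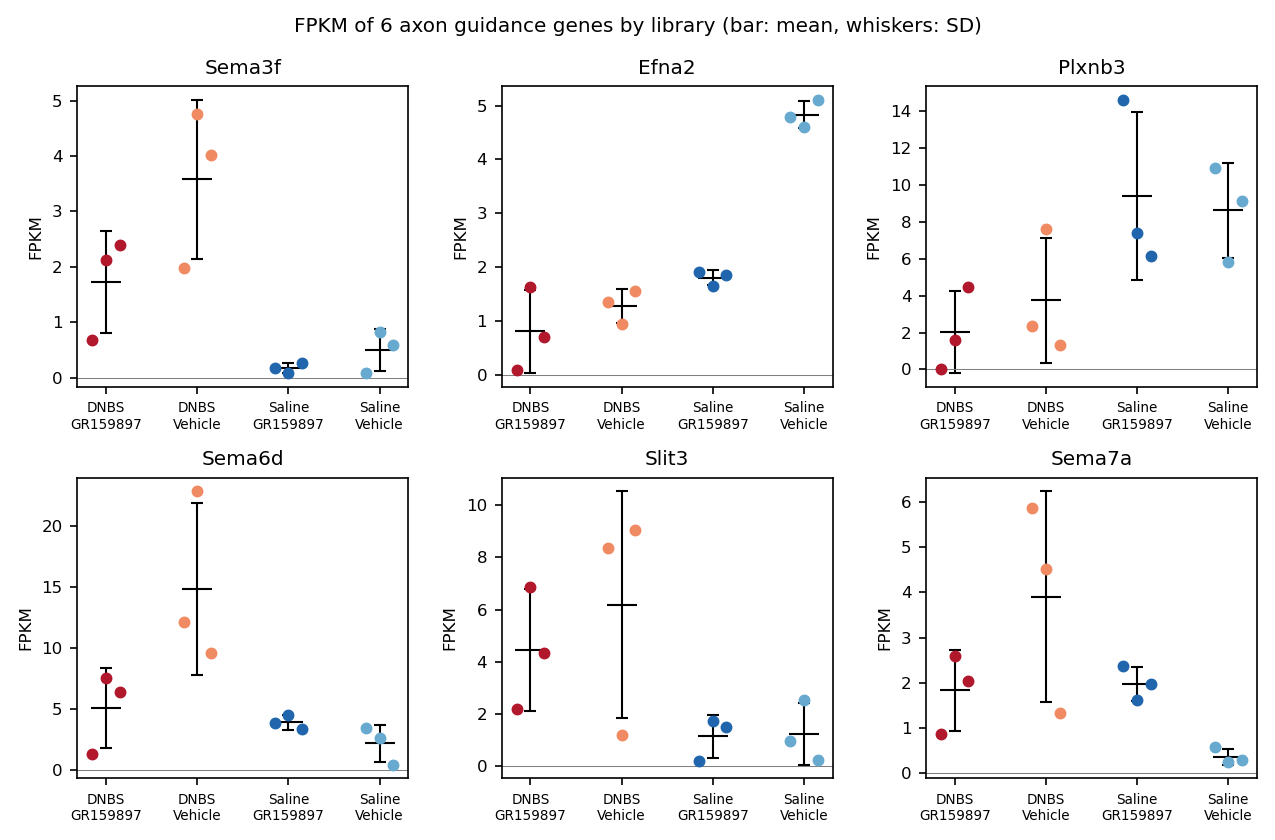
FPKM of 6 guidance genes in each library (points), with the group mean (bar) and SD (whiskers, n = 3), in the order DNBS_GR159897, DNBS_Vehicle, Saline_GR159897 and Saline_Vehicle. All 3 DNBS libraries of each arm are above the saline libraries of that arm for Sema3f, while the 3 Saline_Vehicle libraries, at 4.61 to 5.11 FPKM, stand alone at the top for Efna2.

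Among the ligands that did not pass the threshold, Slit3, the secreted ligand of Robo receptors, had the largest averaged change, 1.43 ± 0.44 (adjusted p = 0.05721). This change covers only the annotated locus, with a mean of 3.26 FPKM. Another 3 loci named for Slit3 hold no annotated transcript and were not tested, with means that sum to 17.0 FPKM. Slit3 had the following values at the annotated locus. It had 2.18, 6.85 and 4.32 FPKM in DNBS_GR159897 libraries, 8.35, 1.18 and 9.03 FPKM in DNBS_Vehicle libraries, 0.21, 1.74 and 1.49 FPKM in Saline_GR159897 libraries and 0.97, 2.54 and 0.22 FPKM in Saline_Vehicle libraries. DNBS_Vehicle replicate 2 was the only DNBS library within the saline range in its arm. Without that library Slit3 passed (1.79; adjusted p = 0.0202), and it also passed without DNBS_GR159897 replicate 1 (1.60 ± 0.45; adjusted p = 0.04674).

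Sema6d, a transmembrane semaphorin that binds Plxna1, had 1.36, 7.50 and 6.37 FPKM in DNBS_GR159897 libraries, 12.15, 22.82 and 9.56 FPKM in DNBS_Vehicle libraries, 3.86, 4.52 and 3.35 FPKM in Saline_GR159897 libraries and 3.42, 2.67 and 0.45 FPKM in Saline_Vehicle libraries. The 3 DNBS_Vehicle libraries were the highest of all 12. The averaged change was 1.25 ± 0.39 (adjusted p = 0.06402), and 1.54 ± 0.34 without DNBS_GR159897 replicate 1 (adjusted p = 0.01868). Its receptor Plxna1 had an averaged difference of -0.19 ± 0.29 (95% interval -0.81 to 0.44), and -0.02 ± 0.27 without that library.

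Efnb2, a transmembrane ephrin and the ligand of Ephb4, had 2.84, 1.67 and 0.42 FPKM in DNBS_GR159897 libraries, 2.03, 2.85 and 0.99 FPKM in DNBS_Vehicle libraries, 0.05, 1.11 and 0 FPKM in Saline_GR159897 libraries and 0.43, 0.78 and 0 FPKM in Saline_Vehicle libraries. Vehicle libraries did not overlap, while those with GR159897 did. Efnb2 reached 1 FPKM in 4 DNBS libraries and 1 saline library, so it was tested only because of its DNBS libraries. The averaged difference was 0.98 ± 0.32 (adjusted p = 0.06748), and 0.19 with the annotated share as a term (adjusted p = 0.8405). Ephb4 had 15.71, 6.41 and 3.31 FPKM in DNBS_GR159897 libraries, 3.35, 0.25 and 4.49 FPKM in DNBS_Vehicle libraries, 1.91, 3.34 and 1.99 FPKM in Saline_GR159897 libraries and 2.97, 4.81 and 2.29 FPKM in Saline_Vehicle libraries. Its highest value was in the library that stood apart, and its averaged difference of 0.41 ± 0.42 (interval -0.49 to 1.31) was 0.15 ± 0.39 without that library.

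Sema6b, a transmembrane semaphorin that binds A-type plexins, had 1.21, 0.64 and 2.86 FPKM in DNBS_GR159897 libraries, 1.07, 0.35 and 0.16 FPKM in DNBS_Vehicle libraries, 0.15, 0.09 and 0.37 FPKM in Saline_GR159897 libraries and 0.12, 0.02 and 0.07 FPKM in Saline_Vehicle libraries. It reached 1 FPKM in 3 libraries, all with DNBS, and in 0 saline libraries, so it was tested only through the groups where it is high. Its averaged difference of 0.74 ± 0.26 (adjusted p = 0.08407) is a description for that reason, and without DNBS_GR159897 replicate 1 it was not tested. Unc5b had 2.65, 0.96 and 2.58 FPKM in DNBS_GR159897 libraries, 1.70, 2.86 and 1.06 FPKM in DNBS_Vehicle libraries, 0.54, 0.97 and 1.34 FPKM in Saline_GR159897 libraries and 0.30, 0.97 and 0.95 FPKM in Saline_Vehicle libraries. The groups overlapped with GR159897 and did not overlap with vehicle. Unc5b reached 1 FPKM in 5 DNBS libraries and 1 saline library, so it too was tested only because of its DNBS libraries. The averaged difference was 0.66 ± 0.26 (adjusted p = 0.1213), and 0.24 with the annotated share as a term.

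Of the plexins and neuropilins, 7 of 8 had lower values with DNBS, where 61.2% of all genes tested had lower values. The median difference of the 8 was -0.49, against -0.18 over all genes tested. The count was also 7 of 8 with values scaled to the annotated total and without DNBS_GR159897 replicate 1, and Nrp2 was the exception. Plxnb3 was the 1 of the 8 that passed. Over all 42 members, 19 had higher and 23 lower values, beside the same 61.2% lower among all genes, with a median of -0.06. Scaling to the annotated total moved the median of all genes to -0.03 and that of the members to 0.10.

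Plxnb1, the receptor of Sema4d, had 0.81, 6.39 and 2.85 FPKM in DNBS_GR159897 libraries, 4.36, 9.69 and 2.84 FPKM in DNBS_Vehicle libraries, 8.74, 12.89 and 7.99 FPKM in Saline_GR159897 libraries and 6.53, 8.23 and 8.40 FPKM in Saline_Vehicle libraries. Only DNBS_Vehicle replicate 2 among the DNBS libraries reached the saline range. The averaged difference was -1.02 ± 0.37 (adjusted p = 0.0931), and without DNBS_GR159897 replicate 2 it passed (adjusted p = 0.04276).

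Plxnb2 had 7.98, 7.38 and 9.34 FPKM in DNBS_GR159897 libraries, 4.28, 9.07 and 3.73 FPKM in DNBS_Vehicle libraries, 11.34, 11.19 and 10.36 FPKM in Saline_GR159897 libraries and 9.51, 9.86 and 10.15 FPKM in Saline_Vehicle libraries. As for Efna2, all 6 DNBS libraries were below all 6 saline libraries, in both cases by a narrow margin. The Plxnb2 values had little spread among the saline libraries. The averaged difference was -0.58 ± 0.26 (adjusted p = 0.1667). Such separation in the lower direction was seen in 2 of 42 members, 4.76%, against 4.29% of all genes, and in the higher direction in 0 members, against 1.74%.

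Plxna4, which carries the signal of neuropilin-bound class 3 semaphorins, had 0, 0.43 and 1.56 FPKM in DNBS_GR159897 libraries, 1.88, 5.33 and 0.46 FPKM in DNBS_Vehicle libraries, 2.73, 1.34 and 3.06 FPKM in Saline_GR159897 libraries and 3.34, 3.5 and 4.63 FPKM in Saline_Vehicle libraries. Both arms overlapped, and the averaged difference was -0.89 ± 0.36 (adjusted p = 0.1304), or -0.73 ± 0.37 without DNBS_GR159897 replicate 1. Nrp2, the co-receptor of Sema3f, had 3.73, 15.89 and 5.39 FPKM in DNBS_GR159897 libraries, 5.15, 10.52 and 3.5 FPKM in DNBS_Vehicle libraries, 1.42, 8.25 and 4.27 FPKM in Saline_GR159897 libraries and 4.74, 6.46 and 4.0 FPKM in Saline_Vehicle libraries. The groups overlapped in both arms, and the averaged difference of 0.45 ± 0.41 had an interval of -0.44 to 1.34.

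Sema3b, which lies 72271 bases from Sema3f on the same strand of chromosome 9 (107597674 to 107609229), had 5.53, 26.11 and 13.46 FPKM in DNBS_GR159897 libraries, 16.31, 76.21 and 22.92 FPKM in DNBS_Vehicle libraries, 110.35, 25.30 and 24.25 FPKM in Saline_GR159897 libraries and 32.91, 46.60 and 80.44 FPKM in Saline_Vehicle libraries. The groups overlapped in both arms. The averaged difference was -1.15 ± 0.54 (95% interval -2.31 to 0.01; adjusted p = 0.1805), opposite in sign to that of its neighbour.

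With vehicle alone, the comparison of colitis with saline called 0 of 42 members by limma, against 0.321% of all genes (41 of 12777; 0.235% higher and 0.0861% lower). At an unadjusted p under 0.05 there were 6 of 42, 14.3%, against 12.6%. In 8 of 42 members, 19.0%, every DNBS_Vehicle library was above every Saline_Vehicle library, against 9.53% of all genes. These were Sema6d, Sema3f, Sema7a, Efnb2, Unc5b, Sema6b, Efna1 and Efnb1. The count includes Sema3f, Sema6b, Efnb2 and Unc5b, which were tested only because of their DNBS libraries. Sema3f and Sema6b reached 1 FPKM in 0 saline libraries, and Efnb2 and Unc5b in 1 each. The lower direction held Efna2 and Plxnb2, 4.76%, against 14.9% of all genes.

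Among these, Sema6d differed by 2.38 ± 0.56 (95% interval 1.17 to 3.58; adjusted p = 0.1057) and Sema3f by 1.59 ± 0.37 (adjusted p = 0.1073). Efna2 differed by -1.36 ± 0.34 (adjusted p = 0.1309). These 3 passed when DNBS_GR159897 replicate 1, a library outside this comparison that adds to the shared estimate of spread, was left out (adjusted p = 0.02921 for Sema6d, 0.04185 for Sema3f and 0.04395 for Efna2, of 183 genes called). Slit3 (1.53 ± 0.62), Efnb2 (1.06 ± 0.45) and Unc5b (0.70 ± 0.37) had adjusted p of 0.3308 to 0.4631.

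Sema7a, a GPI-anchored semaphorin that also binds integrins and acts in inflammation, had 0.86, 2.60 and 2.03 FPKM in DNBS_GR159897 libraries, 5.87, 4.51 and 1.32 FPKM in DNBS_Vehicle libraries, 2.36, 1.61 and 1.97 FPKM in Saline_GR159897 libraries and 0.57, 0.24 and 0.29 FPKM in Saline_Vehicle libraries. The 3 Saline_Vehicle libraries were the lowest of all 12. With vehicle the difference with DNBS was 1.71 ± 0.41 (adjusted p = 0.1202), and without DNBS_Vehicle replicate 3 it passed (2.18; adjusted p = 0.04186). Sema7a lies on chromosome 9, 57940112 to 57962865, plus strand.

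Sema4f, a transmembrane class 4 semaphorin, had 0.09, 3.77 and 3.63 FPKM in DNBS_GR159897 libraries, 1.3, 19.25 and 0.80 FPKM in DNBS_Vehicle libraries, 0.90, 1.59 and 0.25 FPKM in Saline_GR159897 libraries and 0.11, 1.15 and 0.96 FPKM in Saline_Vehicle libraries. Its vehicle difference of 1.39 ± 0.82 (adjusted p = 0.5234) rested on DNBS_Vehicle replicate 2, and without that library it was 0.28. Sema4f reached 1 FPKM in 4 DNBS and 2 saline libraries, so it too was tested only because of its DNBS libraries.

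With GR159897, DNBS against saline called 0 of 42 members by limma, against 1.38% of all genes (176 of 12778; 0.383% higher and 0.994% lower), and 5 of 42 had an unadjusted p under 0.05, or 11.9%, against 22.7%. Among all genes 49 rose and 127 fell, and with values scaled to the annotated total 50 rose and 41 fell. Every DNBS_GR159897 library was below every Saline_GR159897 library in 8 members, 19.0%, against 17.6% of all genes: Plxnb3, Plxnb1, Plxnb2, Plxnd1, Ephb6, Ephb2, Efna2 and Sema3e. Of these, Plxnd1 reached 1 FPKM in only 3 libraries, 2 saline and 1 DNBS, so it would not have been tested without its saline libraries. Sema3f, Sema6b and Slit3 were separated in the higher direction, 7.14%, against 6.67%, of which Sema3f and Sema6b again entered through their DNBS libraries.

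Plxnb3 had the smallest p in this arm, with a difference of -2.00 ± 0.62 (95% interval -3.34 to -0.65; adjusted p = 0.1014), and -1.38 ± 0.59 without DNBS_GR159897 replicate 1 (adjusted p = 0.2576). It passed without DNBS_GR159897 replicate 3 (-2.57; adjusted p = 0.04237). Sema3f differed by 1.16 ± 0.37 (adjusted p = 0.1092). Plxnb1 differed by -1.52 ± 0.52 (adjusted p = 0.1233), which became -1.0 ± 0.48 without DNBS_GR159897 replicate 1 (adjusted p = 0.3131). Ephb6, an Eph receptor without kinase activity, had 0.02, 1.45 and 1.07 FPKM in DNBS_GR159897 libraries, 2.15, 6.73 and 1.28 FPKM in DNBS_Vehicle libraries, 9.17, 3.20 and 4.30 FPKM in Saline_GR159897 libraries and 2.49, 1.38 and 9.63 FPKM in Saline_Vehicle libraries. The 3 DNBS_GR159897 libraries were below the 3 Saline_GR159897 libraries, and the vehicle groups overlapped. Its difference was -1.82 ± 0.62 with GR159897 (adjusted p = 0.1237) and -0.22 ± 0.62 with vehicle.

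The 2 DNBS comparisons share no library. The sign of the difference was the same in both for 28 of 42 members, 66.7%, of which 13 were higher and 15 lower in both, against 69.7% of the 12777 genes tested.

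**Figure D3:**
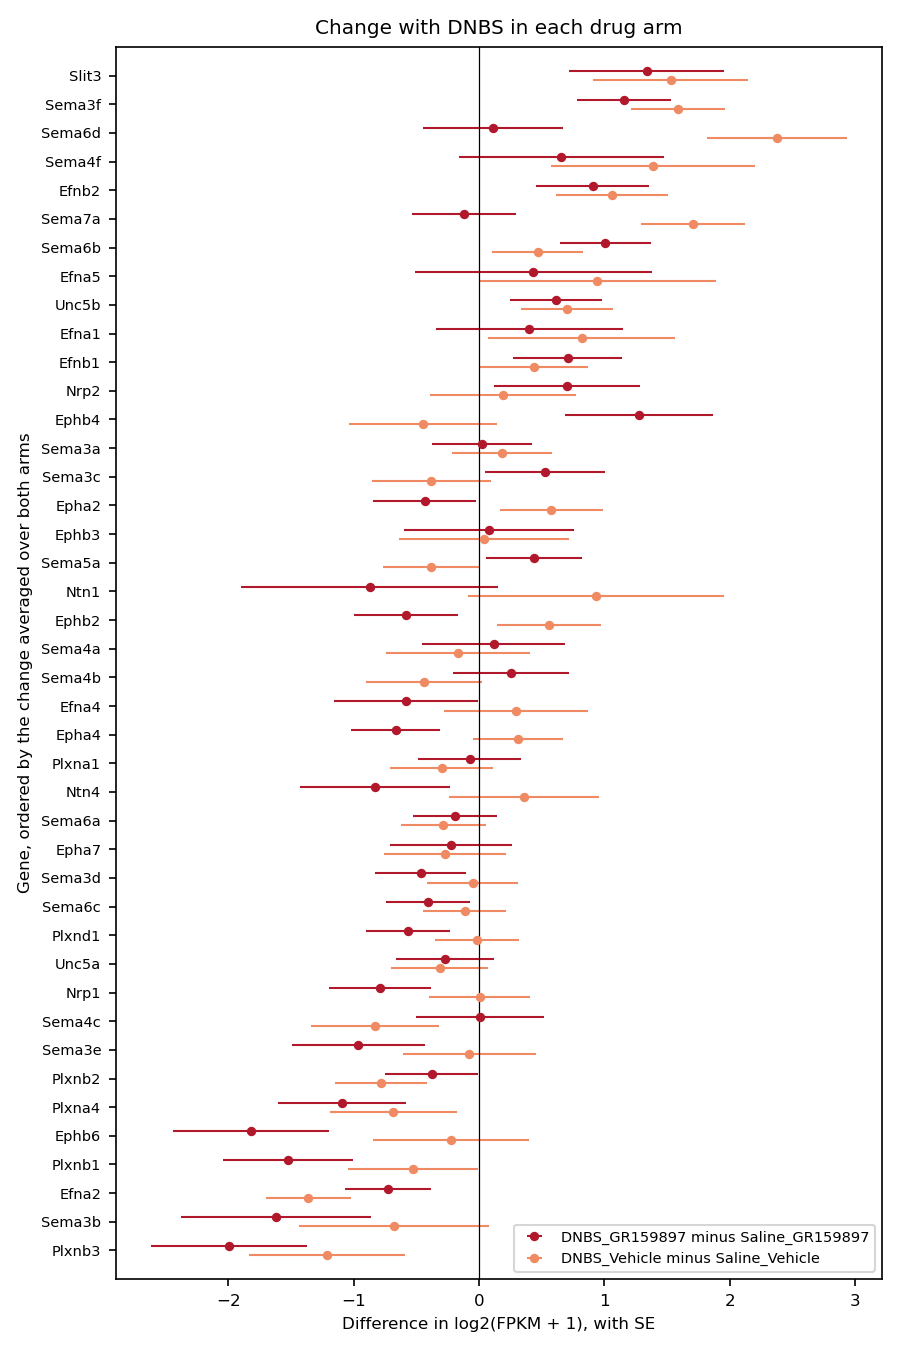
Difference in log2(FPKM + 1) with its SE for the 42 tested genes, for DNBS_GR159897 minus Saline_GR159897 (dark red) and DNBS_Vehicle minus Saline_Vehicle (orange), ordered by their mean. Sema3f and Slit3 lie to the right of 0 in both arms and Plxnb3 to the left, while Sema6d and Sema7a lie at 2.38 and 1.71 with vehicle, and at 0.11 and -0.12 with GR159897.

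The effect of the antagonist itself was asked in colitis and in saline mice. In colitis, DNBS_GR159897 against DNBS_Vehicle called 0 of 42 members by limma, against 0.0% of all genes, with 2 members at an unadjusted p under 0.05 (4.76%, against 8.13%). Sema6d differed by -1.49 ± 0.56 (95% interval -2.70 to -0.29; adjusted p = 0.6068), and every DNBS_GR159897 library was below every DNBS_Vehicle library. It was the 1 member with such separation, 2.38%, against 6.89% of all genes, and 0 members were separated in the higher direction, against 3.19%. Without DNBS_GR159897 replicate 1 the difference of Sema6d was -0.91 ± 0.51. Ephb4 differed by 1.39 ± 0.59 (adjusted p = 0.6068), which became 0.87 ± 0.58 without that library. Sema3f differed by -0.75 ± 0.37 (interval -1.56 to 0.06; adjusted p = 0.6178), and by -0.44 ± 0.37 without it.

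In saline mice, Saline_GR159897 against Saline_Vehicle called 0 of 42 members by limma, against 0.0% of all genes, and 2 members had an unadjusted p under 0.05 (4.76%, against 1.69%). These were Efna2 at -1.05 ± 0.34 (95% interval -1.79 to -0.32; unadjusted p = 0.008762) and Sema7a at 1.12 ± 0.41 (0.23 to 2.02; unadjusted p = 0.01772), and the adjusted p of both was 1. For both, the Saline_Vehicle libraries stood apart from all others, so drug and DNBS comparisons that use that group share its values. Efna2 and Plxna4 were separated in the lower direction, 4.76%, against 4.18% of all genes. Sema7a, Epha4 and Plxnb2 were separated in the higher direction, 7.14%, against 3.04%. The count includes Epha4, which reached 1 FPKM in 4 libraries, among them Saline_GR159897 libraries at 1.33 and 2.13 FPKM. Epha4 was thus tested only because of the group where it is high.

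Epha4, which binds ephrins of both classes, had 1.24, 0.36 and 0.12 FPKM in DNBS_GR159897 libraries, 1.04, 0.50 and 0.95 FPKM in DNBS_Vehicle libraries, 0.86, 1.33 and 2.13 FPKM in Saline_GR159897 libraries and 0.11, 0.63 and 0.73 FPKM in Saline_Vehicle libraries. The drug difference in saline mice was 0.71 ± 0.36, and the DNBS groups overlapped. Ntn1, the classic netrin, had 0.26, 3.47 and 5.41 FPKM in DNBS_GR159897 libraries, 2.40, 4.77 and 3.65 FPKM in DNBS_Vehicle libraries, 0.40, 11.63 and 11.53 FPKM in Saline_GR159897 libraries and 0.06, 0.08 and 10.47 FPKM in Saline_Vehicle libraries. The saline libraries of each arm held values of 10.47 to 11.63 FPKM and values of 0.40 FPKM or less, so the difference of 1.36 ± 1.02 with the drug had an interval of -0.87 to 3.58.

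Whether the drug changed the response to DNBS was tested as an interaction, which called 0 of 42 members by limma, against 0.0% of all genes, with 2 of 42 (4.76%, against 3.58%) at an unadjusted p under 0.05. Sema7a had an interaction of -1.83 ± 0.59 (unadjusted p = 0.008133) and Sema6d of -2.26 ± 0.79 (unadjusted p = 0.0132), with an adjusted p of 0.9571 for both. For Sema7a the DNBS difference was -0.12 ± 0.41 with GR159897 and 1.71 ± 0.41 with vehicle. Without DNBS_GR159897 replicate 1 the interactions were -1.55 ± 0.58 for Sema7a, -1.68 ± 0.68 for Sema6d and 1.20 ± 0.78 for Ephb4, and the DNBS differences with GR159897 were 0.16 ± 0.43 for Sema7a and 0.70 ± 0.51 for Sema6d. With all libraries Ephb4 (1.72 ± 0.83), Ephb2 (-1.14 ± 0.58) and Epha4 (-0.97 ± 0.50) had intervals that included 0.

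Ephb2, Ntn4 and Efna5 were called in 0 of the 6 comparisons by limma. Ephb2, a receptor for B-type ephrins, had 2.04, 1.19 and 2.32 FPKM in DNBS_GR159897 libraries, 4.36, 6.20 and 1.79 FPKM in DNBS_Vehicle libraries, 2.42, 2.57 and 5.10 FPKM in Saline_GR159897 libraries and 2.60, 1.52 and 2.73 FPKM in Saline_Vehicle libraries. Ntn4, a laminin-related netrin of basement membranes, had 0.78, 7.63 and 4.52 FPKM in DNBS_GR159897 libraries, 5.50, 16.03 and 3.95 FPKM in DNBS_Vehicle libraries, 4.74, 5.87 and 11.04 FPKM in Saline_GR159897 libraries and 5.79, 6.03 and 4.46 FPKM in Saline_Vehicle libraries. The averaged DNBS differences were -0.01 ± 0.29 for Ephb2 (interval -0.65 to 0.62) and -0.24 ± 0.42 for Ntn4 (-1.15 to 0.68), or -0.04 ± 0.31 and 0.09 ± 0.36 without DNBS_GR159897 replicate 1. Efna5, a GPI-anchored ephrin, had 1.37, 8.84 and 7.63 FPKM in DNBS_GR159897 libraries, 9.78, 12.10 and 5.62 FPKM in DNBS_Vehicle libraries, 6.48, 0.15 and 8.48 FPKM in Saline_GR159897 libraries and 11.17, 0.18 and 8.15 FPKM in Saline_Vehicle libraries. In each saline group 1 library had 0.15 or 0.18 FPKM and the other 2 had 6.48 FPKM or more, and the averaged difference of 0.69 ± 0.67 had an interval of -0.76 to 2.14.

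DNBS_GR159897 replicate 1 was the highest of all 12 libraries for 6 of the 42 tested members, 14.3%, against 13.4% of all genes, and the lowest for 15, 35.7%, against 32.8%. Efna1, a GPI-anchored ephrin, had 21.8 FPKM there and 0.85 to 5.59 FPKM elsewhere, and Ephb4 15.7 FPKM there and at most 6.41 FPKM elsewhere. Sema4g, which did not pass the filter, had 19.1 FPKM there and at most 1.76 FPKM elsewhere. The same library summed to 1115 FPKM of epithelial markers, against 0.79 to 37.4 FPKM in the other 11, and their part in these values was not tested.

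**Figure D4:**
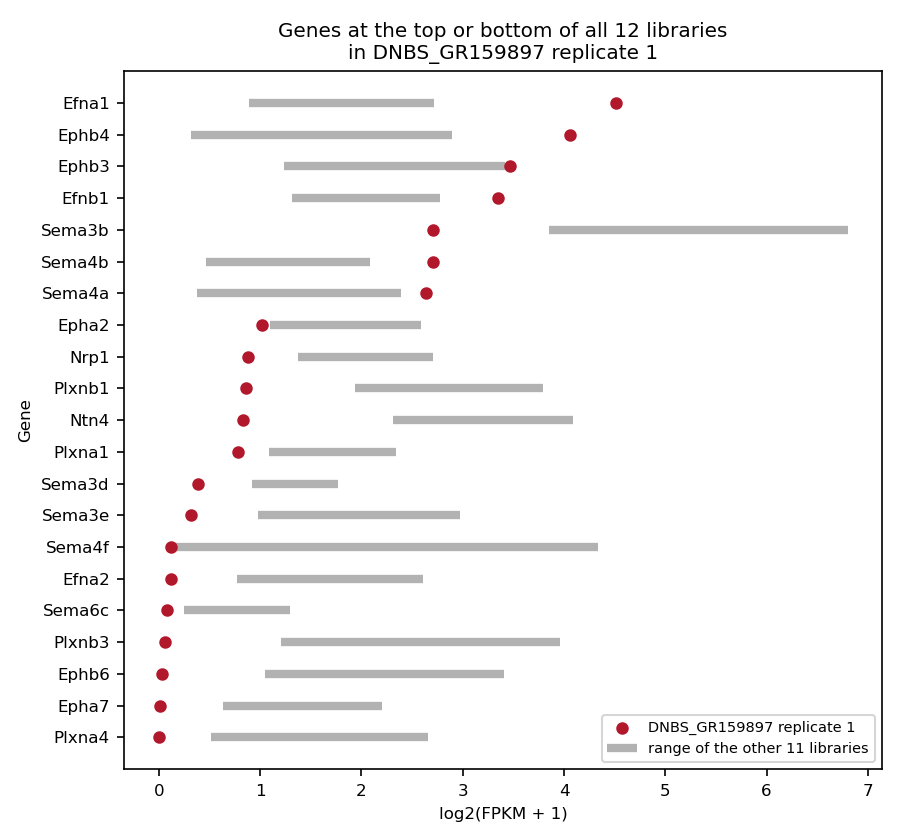
Level in DNBS_GR159897 replicate 1 (dark red points) and the range of the other 11 libraries (grey bars), as log2(FPKM + 1), for the 21 tested genes at the top or bottom of all 12 libraries in that one. Efna1 and Ephb4 lie to the right of their bars, at 21.8 and 15.7 FPKM, and 15 genes lie to the left of theirs.

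Other genes of the pathway were counted in lists that held no member. Of 21 other cues and co-receptors, 15 were tested for the averaged DNBS change, and 2 fell, or 13.3%, against 6.83% of all genes. Lower values were 13 of 15, 86.7%, against 61.2% of all genes, with a median of -0.49 (with values scaled to the annotated total, 6 higher and 9 lower values and 1 that fell). Lrrc4c, the netrin-G1 ligand at synapses, had 0.03, 3.06 and 2.24 FPKM in DNBS_GR159897 libraries, 2.55, 0.14 and 2.67 FPKM in DNBS_Vehicle libraries, 9.11, 6.76 and 8.98 FPKM in Saline_GR159897 libraries and 12.42, 11.11 and 11.23 FPKM in Saline_Vehicle libraries. All 6 DNBS libraries were below all 6 saline libraries, and the averaged change was -2.15 ± 0.39 (adjusted p = 0.009401). Flrt1, a membrane protein that binds Unc5 receptors, fell by 1.38 ± 0.40 (adjusted p = 0.04837) and did not pass without DNBS_GR159897 replicate 1 (adjusted p = 0.05282). Ntng1, the partner of Lrrc4c, differed by -0.87 ± 0.28 (adjusted p = 0.06695). It reached 1 FPKM in 5 saline libraries and 1 DNBS library, so it was tested only because of its saline libraries, where it is high. The same holds for Cntn1 of this list, with 4 saline and 0 DNBS libraries at 1 FPKM. The count of lower values includes both.

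Of 58 signal transducers, 48 were tested, of which 2 rose and 2 fell, 4.17% each, against 2.76% and 6.83% of all genes. Lower values were 32 of 48, 66.7%, against 61.2%, with a median of -0.28. Dpysl4, a collapsin response mediator that acts downstream of semaphorins, had 0.03, 1.84 and 1.26 FPKM in DNBS_GR159897 libraries, 1.76, 0.67 and 1.61 FPKM in DNBS_Vehicle libraries, 15.7, 3.97 and 7.20 FPKM in Saline_GR159897 libraries and 10.3, 4.62 and 7.22 FPKM in Saline_Vehicle libraries. Its groups did not overlap, and the averaged change was -2.02 ± 0.36 (adjusted p = 0.009401). The Src-family kinase Fyn fell by 1.29 ± 0.31 (adjusted p = 0.02552), with 0.88 to 7.63 FPKM in DNBS libraries and 10.5 to 16.5 FPKM in saline libraries.

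Vasp, which extends actin filaments, rose by 1.27 ± 0.35 (adjusted p = 0.03902), and Fes, a kinase that acts below Plxna1 and is abundant in myeloid cells, rose by 1.04 ± 0.28 (adjusted p = 0.03799). Fes had 3.08, 0.83 and 0.56 FPKM in DNBS_GR159897 libraries, 2.42, 1.76 and 1.12 FPKM in DNBS_Vehicle libraries, 0.01, 0.76 and 0.39 FPKM in Saline_GR159897 libraries and 0, 0.23 and 0.03 FPKM in Saline_Vehicle libraries, and it did not pass without DNBS_GR159897 replicate 1 (adjusted p = 0.05148). Fes reached 1 FPKM in 4 DNBS and 0 saline libraries, so it entered the test through the groups where it is high, and with no filter it did not pass (adjusted p = 0.07323). Vasp did not pass with no filter (adjusted p = 0.07943). With vehicle alone, 0 of 15 and 0 of 48 list genes passed by limma, and Lrrc4c had the smallest adjusted p, 0.1049. Leaving out single libraries gave 2 to 8 calls over both lists, against 6 with all libraries. Over the 19 fits run, Lrrc4c and Dpysl4 passed in 18, Fyn in 13, Vasp in 8, Fes in 6 and Flrt1 in 4. The fit with the annotated share as a term ended the calls of Lrrc4c (-1.01; adjusted p = 0.2275) and Dpysl4 (-1.07; adjusted p = 0.2398).

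Of the 22 members described by library, 0 overlapped exons of a different gene on their own strand and 3 did on the opposite one: Ephb4 with Zan, Plxna4 with Plxna4os3, and Plxnb1 with Gm7628. Whether the values tell strands apart is not known here, so reads of these pairs may be mixed. The 69 members lie on 19 chromosomes; Efna1, Efna3 and Efna4 lie within 66296 bases on chromosome 3.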

How the data were processed

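Ribosome-bound RNA was measured in 12 libraries. The authors deposited 1 table of FPKM values per assembled locus; per the labels' protocols, cDNA came from 1 ng of RNA. Cutadapt 1.10, FastQC 0.10.1, HISAT2 2.0 and StringTie 1.3 are named, per the submitters' processing notes, without role or order. The genome build was not given in the sources used here. Depth is unknown, so values carry no counting interval.

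Annotated transcripts were present in 24432 of 99547 loci, and 38 duplicates of a symbol with lower means were dropped. Genes with 1 FPKM or more in at least 3 libraries were fitted as log2(FPKM + 1) with limma 3.58.1 (R 4.3.3), using a mean per group over all 12 libraries, 8 residual degrees of freedom and a trended, robust prior. Tests were two-sided, and Benjamini-Hochberg adjusted p-values over all genes tested were held to 0.05. Python 3.11.15, pandas 2.3.3, numpy 2.4.6 and matplotlib 3.10.9 handled tables and plots. No libraries were identical.

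The members and lists were chosen with earlier results of these data known. Members are given by library if called in any of 6 contrasts, if among the 10 smallest p of the vehicle or averaged DNBS contrast or the 5 smallest of the others, or if among the 8 highest means. Positions came from GENCODE M21 (GRCm38) by transcript identifier, for 69 of 69 members. On simulated data for DNBS_Vehicle against Saline_Vehicle (12777 genes, 5 runs of 200 changed genes), log2 changes of 1, 2, 3 and 4 were recovered in 0.8%, 36.4%, 75.6% and 84.8%, with 3.8 false calls per run. Changes were put only into genes with a mean log2(FPKM + 1) above 1, so these rates do not cover genes at lower levels. The simulated noise was normal and independent for each gene, with no library that stood apart. Alternatives were a pseudocount of 0.1, no filter, scaling to the annotated total, terms for sex and annotated share, a replicate block, library weights, only the groups compared, and leaving out each library. For the pathway lists these were added after the data were seen.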

Additional observations from a re-analysis of the deposited data

Results flagged for a closer look

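Of the loci named for a member, 725 hold no annotated transcript and were used in no comparison. Their summed FPKM was 742, 635 and 356 in DNBS_GR159897 libraries, 294, 183 and 181 in DNBS_Vehicle libraries, 8.18, 327 and 169 in Saline_GR159897 libraries and 103, 255 and 55.4 in Saline_Vehicle libraries. All 3 DNBS_GR159897 libraries, the lowest at 356 FPKM, were above the 3 Saline_GR159897 libraries, and this difference was not tested. All 75115 loci without an annotated transcript separated the same way, with 378470, 153100 and 140898 FPKM in DNBS_GR159897 and 13271, 75681 and 68669 FPKM in Saline_GR159897 libraries. Of that total, loci named for a member took 0.196%, 0.414% and 0.252% in DNBS_GR159897 and 0.0616%, 0.432% and 0.246% in Saline_GR159897 libraries, which overlap. The most such loci were named for Sema6d, with 107 loci whose means summed to 33.4 FPKM, and Robo2, with 106 loci and 35.8 FPKM.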

How the results depend on the processing

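Of 769 alternative values of 40 member differences, 720 kept their direction and their side of the threshold, 23 lost and 26 gained significance, and 0 reversed. The averaged DNBS change called 3 members with 1226 genes; this became 1 member with a pseudocount of 0.1, 442 genes without a filter, 805 with a sex term, 0 members and 68 genes with the annotated share as a term, and 9 members and 3009 genes with library weights, and leaving out single libraries gave 1 to 5 members and 402 to 1645 genes. In DNBS_Vehicle against Saline_Vehicle (0 members, 41 genes), library weights called 5 members and 514 genes, a pseudocount of 0.1 called 21 genes, no filter 13, a sex term 24 and only the groups compared 143, and single omissions gave 0 to 3 members and 0 to 183 genes. In DNBS_GR159897 against Saline_GR159897 (0 members, 176 genes), library weights called 7 members and 2154 genes, a pseudocount of 0.1 called 42 genes, no filter 18, scaling 91, a sex term 25, the annotated share 1 and only the groups compared 10, and single omissions gave 0 to 1 members and 4 to 601 genes. No member passed in the drug comparisons or the interaction under any alternative run. The genes called there, 0 at first, were 1 in saline mice with a pseudocount of 0.1, scaling, the annotated share or only the groups compared, and 5 with weights (0 to 2 on omission). In colitis they were 2, 3 and 69 with the pseudocount, scaling and weights (0 to 6 on omission), and for the interaction 2, 1 and 5 (0 to 2 on omission). Calls in the 2 pathway lists went to 2 without a filter, 3 with a sex term, 0 with the annotated share and 14 with weights, and to between 2 and 8 on omission. Of 18 pairs of libraries with the same replicate number, 2 correlated above 0.1 in their deviations from group means (r from -0.088 to 0.202). Pairs with different numbers were not compared, so these values cannot tell whether the numbers pair the samples. With the number as a replicate block, the averaged change called Efna2, Efnb2 and Sema3f (3 members), and genes called fell to 18 with vehicle and 31 with GR159897. The cause of these shifts was not tested. Depth is unknown and 3 libraries a group left most simulated log2 changes of 1 uncalled.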

Other observations

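Sema4d, the ligand of Plxnb1, lies in a locus merged with Gm15440 and is therefore not a member. That locus had 0.60, 1.25 and 0.62 FPKM in DNBS_GR159897 libraries, 1.13, 2.63 and 0.76 FPKM in DNBS_Vehicle libraries, 5.24, 2.24 and 2.15 FPKM in Saline_GR159897 libraries and 4.21, 1.76 and 4.86 FPKM in Saline_Vehicle libraries. Of the 6 DNBS libraries, 5 were below every saline library, and DNBS_Vehicle replicate 2 was the exception, as it was for Plxnb1 and Plxnb3.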
